A study of Homo sapiens with 42 samples.

Results

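The genes of class II antigen presentation were followed through 5 human leukaemia lines in which the histone methyltransferase NSD2 had been overexpressed or lowered. The set held 10 genes, taken by symbol from the gene tables of each line: HLA-DRA, HLA-DRB1, HLA-DQA1, HLA-DQB1, HLA-DPA1, HLA-DPB1, HLA-DMA, HLA-DMB, CD74 and CIITA. All 10 symbols were found in every line. RNA was sequenced in 42 libraries, and all 5 lines are established cultures of malignant B-cell precursors (B-ALL, the acute lymphoblastic leukaemia of the B lineage). In the line Reh and the line 697 the groups were cells overexpressing the mutant NSD2 that the labels call EK, cells overexpressing wild-type NSD2 (WT) and cells with an empty vector (EV), in 2 replicates per group for Reh and 3 for 697. In RS411 (the line RS4;11), RCH (the line RCH-ACV) and SEM the groups were cells with the hairpin sh2, cells with the hairpin sh5 and cells with a non-targeting hairpin (NT), in 3 replicates per group. The series text names sh2 as the NSD2 knockdown, while sh5 stands in the sample titles alone. Cells of all groups grew in the same medium, no drug is named in the labels, and neither the promoter of the vectors nor the clonality of the engineered lines is given there. Whether replicates came from separate cultures is not stated in the labels, so p-values measure only how far these libraries spread, which may be technical.

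Class II molecules are surface heterodimers of an alpha and a beta chain that show peptides from the endosome to CD4+ T cells. HLA-DR, HLA-DQ and HLA-DP are the 3 presenting dimers, CD74 is the invariant chain that escorts them and blocks the groove, and HLA-DM is the dimer that exchanges the remnant of CD74 for a peptide. CIITA is the coactivator that the class II promoters depend on. It binds no DNA itself and is recruited by a complex of RFX, CREB and NF-Y on the X and Y boxes of these promoters. B cells express class II genes constitutively, and loss of class II on leukaemic blasts is a known route of escape from T cells after transplantation.

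The promoters of several of these genes, but not of all, hold letters of these boxes. RefSeq promoters (build GRCh38.p14, 250 bases before to 50 after the start) were at hand for 8 of the 10 genes, with 2 entries for HLA-DPA1, and the windows below run from base -130 to base -11 relative to the start. Capitals mark the X-box-like letters (AG, any 2 bases, AC, any base, GATG) and the Y-box letters ATTGG, searched on both strands, so that CCAAT is ATTGG on the other strand. No 2 of the marked matches overlap. HLA-DRB1, HLA-DQB1, HLA-DMA and HLA-DMB are shown because they match the letters of both boxes, HLA-DMB with the Y-box letters on the other strand only. HLA-DQA1 is shown because it had the largest fold change in SEM. The search takes these exact letters and misses variants, so a promoter without a match may still hold the box.
HLA-DRB1 (chr6:32589859-32589978, minus strand): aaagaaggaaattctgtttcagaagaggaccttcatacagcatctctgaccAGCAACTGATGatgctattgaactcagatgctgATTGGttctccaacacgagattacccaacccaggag
HLA-DQB1 (chr6:32666668-32666787, minus strand): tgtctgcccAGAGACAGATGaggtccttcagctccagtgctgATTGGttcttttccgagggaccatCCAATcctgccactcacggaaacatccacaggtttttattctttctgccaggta
HLA-DMA (chr6:32953108-32953227, minus strand): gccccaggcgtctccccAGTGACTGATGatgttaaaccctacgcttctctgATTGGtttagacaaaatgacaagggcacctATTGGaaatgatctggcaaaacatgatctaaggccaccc
HLA-DMB (chr6:32941039-32941158, minus strand): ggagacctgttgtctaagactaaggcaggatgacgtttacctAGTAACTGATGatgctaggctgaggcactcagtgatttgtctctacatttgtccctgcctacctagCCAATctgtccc
HLA-DQA1 (chr6:32637276-32637395, plus strand): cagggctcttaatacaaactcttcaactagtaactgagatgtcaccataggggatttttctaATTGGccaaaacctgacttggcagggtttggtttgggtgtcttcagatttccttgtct

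The X-box-like letters start 79 bases before the start of HLA-DRB1, 121 before HLA-DQB1, 113 before HLA-DMA and 88 before HLA-DMB. In HLA-DRB1, HLA-DQB1 and HLA-DMA the Y-box letters follow on the same strand, with the starts of both boxes 30 to 36 bases apart. That order and spacing was found in 6 of 35116 promoters, or 0.0171%. The X-box-like letters alone were in 287 promoters (0.817%) and the Y-box letters in 12155 (34.6%), among them 7 of the 8 class II genes. The letters were chosen after looking at these promoters, so the matches describe them and test nothing.

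NSD2 itself followed the labels in every line. The label check in Reh gave 1829.9 and 1531 CPM (reads of a gene scaled to the size of the library) with EK and 1745 and 1636 CPM with WT, against 576 and 580 CPM with EV. In 697 the mean was 85908 ± 15625 normalized counts with EK and 93068 ± 15617 with WT, against 9767 ± 1771 with EV (SD, n = 3 each). In SEM NSD2 measured 166 to 179 CPM with sh2 and 132 to 146 CPM with sh5, against 331 to 364 CPM with NT. In RCH it measured 142 to 252 CPM with sh2 and 151 to 226 CPM with sh5, against 327 to 352 CPM with NT. In RS411 it measured 155 to 254 CPM with sh2 and 142 to 210.1 CPM with sh5, against 289 to 329 CPM with NT. The groups did not overlap, but by edgeR's quasi-likelihood test the fall passed adjusted p < 0.05 in SEM alone among the knockdown lines (sh2 8.92e-09, sh5 1.87e-09), with adjusted p of 0.0952 (sh2) and 0.508 (sh5) in RCH and 0.118 (sh2) and 0.164 (sh5) in RS411. B-lineage markers summed to at least 1357 CPM in every library of every line, whereas CD3D, CD3E, CD3G, CD8A, CD14, S100A8 and S100A9 were under 1 CPM in all of them. Other markers of T, NK, myeloid and dendritic cells reached 1 CPM in at least 1 line: NKG7, CD4, CSF1R, ITGAM, LYZ, MPO, CD1C, ITGAX and CLEC9A. The T and NK cell markers summed to 35.7 to 43.4 CPM in RS411, and the myeloid and dendritic cell markers to 50.3 to 102 CPM in SEM. The libraries held 21941718 to 67796769 gene reads each.

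Levels in the control libraries set the starting point of each line. CD74 and HLA-DRA were the highest class II transcripts per length in all 5 lines. With EV in Reh they stood at 1195 and 1006 CPM per kilobase of the longest principal transcript, with EV in 697 at 526 and 231, with NT in RS411 at 1159 and 547, with NT in RCH at 1166 and 878, and with NT in SEM at 986 and 370.3. HLA-DQA1, HLA-DQB1 and HLA-DMB were the lowest on the same scale (CIITA left out) in all lines but SEM, where HLA-DMA (19.3) was below HLA-DQB1 (21.5), with HLA-DQA1 at 26.7 CPM per kilobase in RCH, 9.62 in RS411, 5.93 in 697 and 2.91 in SEM. Reh carried almost no HLA-DQA1: 0 and 0.0364 CPM with EK and 0.0369 and 0 CPM with WT, against 0.0751 and 0.110 CPM with EV, or 7 reads over the 6 libraries, while the other 9 genes had at least 14.1 CPM in every Reh library. CIITA, measured per gene and not per length, averaged 193 CPM with EV in Reh, 165 with NT in RS411, 140.2 with NT in RCH, 124 with NT in SEM and 43.5 with EV in 697. HLA genes are highly polymorphic and reads were aligned to a single reference, so levels are compared between lines without a test.

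**Figure D1:**
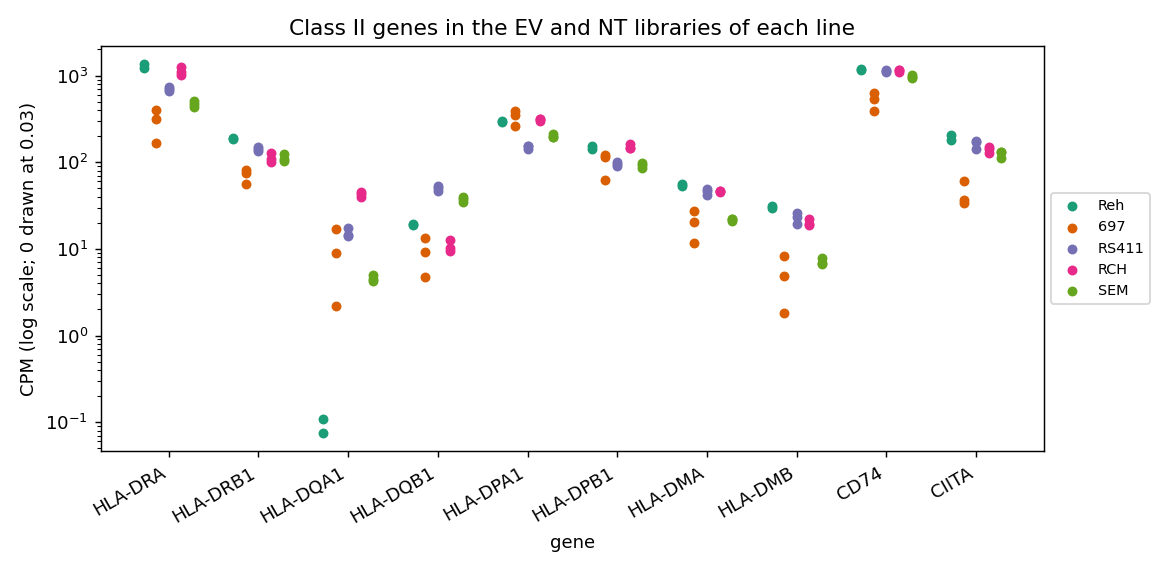
CPM (log scale) of each class II gene in the EV libraries of Reh and 697 and the NT libraries of RS411, RCH and SEM; each point is 1 library. HLA-DQA1 spans the widest range, at 0.0923 CPM on average in Reh and 42.6 CPM in RCH, while CD74 stays between 516 and 1172 CPM on average.

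In SEM, a line with a rearranged KMT2A gene, the whole class II set was higher after knockdown. All 10 genes rose with sh2, by 1.13-fold (HLA-DRA) to 2.40-fold (HLA-DQA1), and 9 of 10 rose with sh5, by 1.15-fold (HLA-DRA) to 2.54-fold (HLA-DQA1). The gene that did not pass the test with sh5 was CD74. Calls are edgeR quasi-likelihood tests at a Benjamini-Hochberg adjusted p < 0.05 over 17042 genes, of which 13.5% were called higher with sh2 and 11.1% with sh5. Every sh2 library lay above every NT library for 10 of 10 class II genes, as it did for 19.3% of all genes tested, and every sh5 library did so for 9 of 10, against 18.3%. The median log2 fold change of the 10 genes was 0.54 with sh2 and 0.35 with sh5, against 0.006 and -0.007 over all genes tested. In bulk RNA fewer cells of a type and less RNA per cell cannot be told apart.

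HLA-DQA1, the alpha chain of HLA-DQ, measured 10.6, 12.04 and 10.7 CPM with sh2 and 12.1, 10.9 and 12.2 CPM with sh5, against 4.53, 5.05 and 4.30 CPM with NT. Both knockdown groups lay well above NT and overlapped each other, with log2 fold changes of 1.26 ± 0.11 (SE, adjusted p = 4.41e-07) for sh2 over NT and 1.35 ± 0.11 (adjusted p = 5.48e-07) for sh5 over NT. Its partner chain HLA-DQB1 measured 53.2, 58.2 and 51.9 CPM with sh2 and 51.3, 49.7 and 52.9 CPM with sh5, against 34.3, 40.0 and 37.3 CPM with NT. That is a log2 fold change of 0.55 ± 0.07 (SE, adjusted p = 2.81e-05) with sh2 and 0.46 ± 0.07 (adjusted p = 0.000239) with sh5, with no overlap with NT.

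HLA-DRB1, the beta chain of HLA-DR, measured 167, 177 and 158 CPM with sh2 and 145, 151 and 153 CPM with sh5, against 109, 123.1 and 103 CPM with NT, without overlap between any of the 3 groups. Its log2 fold change was 0.58 ± 0.07 (SE, adjusted p = 9.09e-06) with sh2 and 0.42 ± 0.07 (adjusted p = 0.000335) with sh5. HLA-DRA, the alpha chain that all HLA-DR molecules share, measured 518, 576 and 516 CPM with sh2 and 531, 546 and 559 CPM with sh5, against 472, 512 and 439 CPM with NT. The knockdown groups did not overlap with NT, but the log2 fold changes of 0.18 ± 0.06 (SE, adjusted p = 0.0481) with sh2 and 0.20 ± 0.06 (adjusted p = 0.0344) with sh5 sat near the threshold, and the adjusted p reached 0.203 with sh2 and 0.147 with sh5 when 1 library was left out. The call was lost with sh2 without replicate 2 or 3 of sh2 or replicate 1 or 3 of NT, and with sh5 without any replicate of sh5 or without replicate 1 or 3 of NT.

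The HLA-DP chains differed between the hairpins. HLA-DPA1 measured 286, 315 and 279 CPM with sh2 and 238, 239.6 and 242 CPM with sh5, against 193, 212 and 197 CPM with NT, so that the 3 groups fell in that order without overlap. HLA-DPB1 measured 131, 153 and 140.1 CPM with sh2 and 118, 119.5 and 124 CPM with sh5, against 84.9, 99.2 and 92.0 CPM with NT, in the same order. Log2 fold changes against NT were 0.55 ± 0.06 and 0.26 ± 0.06 for HLA-DPA1 and 0.62 ± 0.07 and 0.39 ± 0.07 for HLA-DPB1 (SE, sh2 and then sh5), with the largest of these 4 adjusted p at 0.00519. Between sh2 and sh5, HLA-DPA1 was higher by 0.29 ± 0.06 on the log2 scale (adjusted p = 0.00311) and HLA-DPB1 by 0.23 ± 0.07 (adjusted p = 0.0360), the only class II genes of the 10 called between the hairpins, where 4.33% of all genes were called higher with sh2. Every sh2 library lay above every sh5 library for 4 of 10 (HLA-DRB1, HLA-DPA1, HLA-DPB1 and HLA-DMA), as it did for 13.2% of all genes. The call of HLA-DPB1 did not survive leaving out 5 of the 6 libraries (all but sh2 replicate 1). With the replicate number as a block HLA-DRB1 was called higher with sh2 than with sh5 too (adjusted p = 0.0262), where 8.70% of all genes were.

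The peptide exchange dimer rose on both chains. HLA-DMA measured 29.7, 28.7 and 28.7 CPM with sh2 and 27.3, 25.6 and 28.2 CPM with sh5, against 22.1, 20.9 and 22.0 CPM with NT. HLA-DMB measured 10.5, 10.6 and 10.2 CPM with sh2 and 11.5, 10.6 and 10.5 CPM with sh5, against 7.95, 6.80 and 6.78 CPM with NT. No library of either knockdown group reached down to the NT range, and the log2 fold changes with sh2 and then sh5 were 0.42 ± 0.07 and 0.32 ± 0.07 for HLA-DMA and 0.54 ± 0.10 and 0.60 ± 0.10 for HLA-DMB (SE, largest adjusted p = 0.00377).

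CIITA, the coactivator, measured 145, 175 and 157 CPM with sh2 and 147, 156 and 157 CPM with sh5, against 110.4, 132 and 131 CPM with NT. It rose by 0.36 ± 0.08 on the log2 scale with sh2 (SE, adjusted p = 0.00282) and by 0.30 ± 0.08 with sh5 (adjusted p = 0.0113; 0.0538 with upper-quartile factors). CD74 measured 1099, 1248 and 1134 CPM with sh2 and 966, 1114 and 1126 CPM with sh5, against 928, 972 and 1003 CPM with NT. The sh2 libraries lay above NT (log2 fold change 0.26 ± 0.07, SE, adjusted p = 0.00889), while sh5 replicate 1 lay inside the NT range (0.14 ± 0.07, adjusted p = 0.157; 0.03003 with the replicate block, where 17.7% of all genes were called higher).

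**Figure D2:**
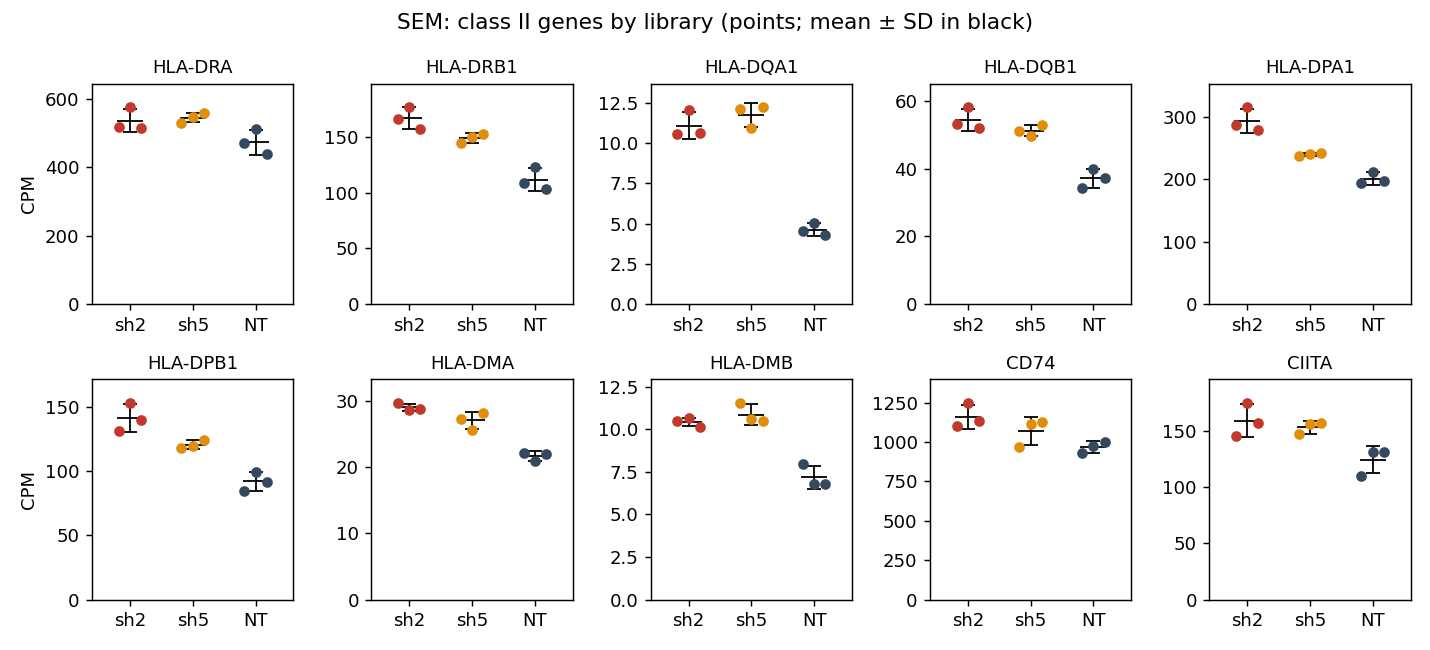
CPM of the 10 class II genes in SEM, by group (sh2, sh5, NT); points are libraries and black bars the mean ± SD of 3. The sh2 points sit above the NT points in every panel, and the sh5 points do so in every panel but CD74, where 1 sh5 library at 966 CPM lies between the NT libraries at 928 and 972 CPM.

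Markers of other cells moved in SEM too. The 12 myeloid and dendritic cell markers summed to 85.0 to 102 CPM with sh2 and 78.3 to 92.4 CPM with sh5, against 50.3 to 57.6 CPM with NT. Of the 5 tested, ITGAX, ITGAM and CSF1R were called higher with sh2 and LYZ, ITGAM and CSF1R with sh5, whereas CD14, MPO, S100A8, S100A9, FCN1, CD1C and FCER1A were under 1 CPM in every SEM library. The 10 B-lineage markers summed to 1376 to 1415 CPM with sh2 and 1357 to 1437 CPM with sh5, against 1612 to 1758 CPM with NT, and 4 of 10 were called lower with sh2 and 5 lower and 1 higher with sh5. The 10 T and NK cell markers summed to 12.3 to 15.95 CPM with sh2 and 15.9 to 21.6 CPM with sh5, against 17.1 to 23.6 CPM with NT, and all but NKG7 were under 1 CPM. The part of these markers in the class II result was not tested.

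In RCH the class II genes were higher with sh2, and the difference from NT was larger for HLA-DQ than for the other chains. Of the 10 genes 5 were called higher (HLA-DQB1, HLA-DQA1, HLA-DRB1, HLA-DMB and HLA-DMA), where 1.17% of 17468 genes tested were. Every sh2 library lay above every NT library for 10 of 10 genes, where 13.0% of all genes did, and the median log2 fold change was 0.69, against -0.016 over all genes. With sh5 edgeR called 0 of 10 (0.0229% of all genes), 3 had an unadjusted p < 0.05 and DESeq2 called 0. For 4 of 10 every sh5 library lay above every NT library, against 3.97% of all genes, and the median was 0.18, against -0.005.

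HLA-DQB1 measured 39.6, 34.1 and 25.3 CPM with sh2 and 20.8, 14.3 and 13.4 CPM with sh5, against 10.2, 9.33 and 12.6 CPM with NT. The sh2 libraries lay above both other groups, which did not overlap either, and the log2 fold change was 1.62 ± 0.23 (SE, adjusted p = 0.0105) with sh2 and 0.59 ± 0.22 (adjusted p = 1.00) with sh5. HLA-DQA1 measured 133, 113 and 91.7 CPM with sh2 and 80.3, 48.2 and 59.0 CPM with sh5, against 45.5, 39.6 and 42.6 CPM with NT, again without overlap. Its log2 fold change was 1.40 ± 0.20 with sh2 (SE, adjusted p = 0.0105) and 0.56 ± 0.19 with sh5 (adjusted p = 0.956). In RCH the near copy HLA-DQA2 held 42.6 to 46.0% of the reads of this pair of genes, HLA-DQB2 11.5 to 14.1% and HLA-DRB5, beside HLA-DRB1, 31.9 to 34.5%, so how reads were split between copies is uncertain.

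HLA-DRB1 measured 248, 210.0 and 176 CPM with sh2 and 153, 124 and 168 CPM with sh5, against 101, 110.1 and 127 CPM with NT. The sh2 libraries stood apart from the others and the sh5 and NT ranges overlapped, with a log2 fold change of 0.91 ± 0.17 (SE, adjusted p = 0.0320) with sh2 and 0.40 ± 0.16 (adjusted p = 1.00) with sh5. HLA-DMA measured 80.4, 68.4 and 71.2 CPM with sh2 and 60.6, 47.7 and 47.9 CPM with sh5, against 45.5, 46.1 and 46.1 CPM with NT. HLA-DMB measured 34.0, 39.3 and 32.0 CPM with sh2 and 29.4, 22.8 and 23.4 CPM with sh5, against 19.1, 22.3 and 19.5 CPM with NT. For both HLA-DM chains the 3 groups lay in that order without overlap, and sh2 over NT gave 0.68 ± 0.13 for HLA-DMA (log2 fold change with SE, adjusted p = 0.0372) and 0.79 ± 0.15 for HLA-DMB (adjusted p = 0.0364).

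The remaining 5 genes did not pass edgeR's test with sh2 although the sh2 and NT groups did not overlap; DESeq2 called HLA-DPB1 (adjusted p = 0.0108) and HLA-DPA1 (adjusted p = 0.0137) among them. HLA-DPB1 measured 279.6, 229 and 229 CPM with sh2 and 199, 129 and 168 CPM with sh5, against 163, 146 and 144 CPM with NT (sh2 log2 fold change 0.70 ± 0.16, SE, adjusted p = 0.0644). HLA-DPA1 measured 479, 431 and 434 CPM with sh2 and 349, 279 and 354 CPM with sh5, against 317, 313 and 299 CPM with NT (sh2 0.53 ± 0.13, adjusted p = 0.0675). HLA-DRA measured 1675, 1604 and 1562 CPM with sh2 and 1359, 928 and 1229 CPM with sh5, against 1253, 1113 and 1004 CPM with NT (sh2 0.52 ± 0.15, adjusted p = 0.118). In these 3 genes sh5 replicate 2 was the lowest of the 9 libraries. CIITA measured 193, 192 and 193 CPM with sh2 and 218, 147 and 112 CPM with sh5, against 126, 143 and 151 CPM with NT, so sh2 was almost constant while sh5 spanned the other groups (sh2 0.46 ± 0.20, adjusted p = 0.258). CD74 measured 1539, 1403 and 1282 CPM with sh2 and 1246, 1156 and 1104 CPM with sh5, against 1090.1, 1169 and 1173 CPM with NT (sh2 0.30 ± 0.12, adjusted p = 0.215).

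The number of calls with sh2 in RCH depended on single NT and sh2 libraries: it was 0 without NT replicate 2, 1 without NT replicate 3 and 2 without NT replicate 1, sh2 replicate 1 or sh2 replicate 2, while the 5 calls stood without sh2 replicate 3. The sh2 libraries also differed in NSD2, with 142, 205 and 252 CPM in replicates 1, 2 and 3. The part of these NSD2 levels in the class II values was not tested. The 12 myeloid and dendritic cell markers summed to 12.2 to 18.2 CPM with sh2 and 19.6 to 28.9 CPM with sh5, against 19.8 to 26.5 CPM with NT, with 8 of them under 1 CPM in every library. The 10 T and NK cell markers summed to 11.7 to 15.3 CPM with sh2 and 10.0 to 11.2 CPM with sh5, against 8.42 to 12 CPM with NT, and the 10 B-lineage markers to 6453 to 7894 CPM with sh2 and 5301 to 7305 CPM with sh5, against 5169 to 7330 CPM with NT. Their part in the class II values was not tested.

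Between the hairpins in RCH all 10 genes had a log2 fold change above 0 (sh2 over sh5), at 0.27 (CD74) to 1.03 (HLA-DQB1). For 9 of 10, all but CIITA, every sh2 library lay above every sh5 library, against 7.67% of all genes. EdgeR called 0 of 10 (and 0% of all genes), 9 had an unadjusted p < 0.05, and DESeq2 called 2, HLA-DQB1 at an adjusted p of 0.00667 and HLA-DQA1 at 0.0276. DESeq2 called 144 genes higher, or 0.367% of 39243. That total includes low-count genes that edgeR's filter leaves out of its 17468, so the share is not on the same base.

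**Figure D3:**
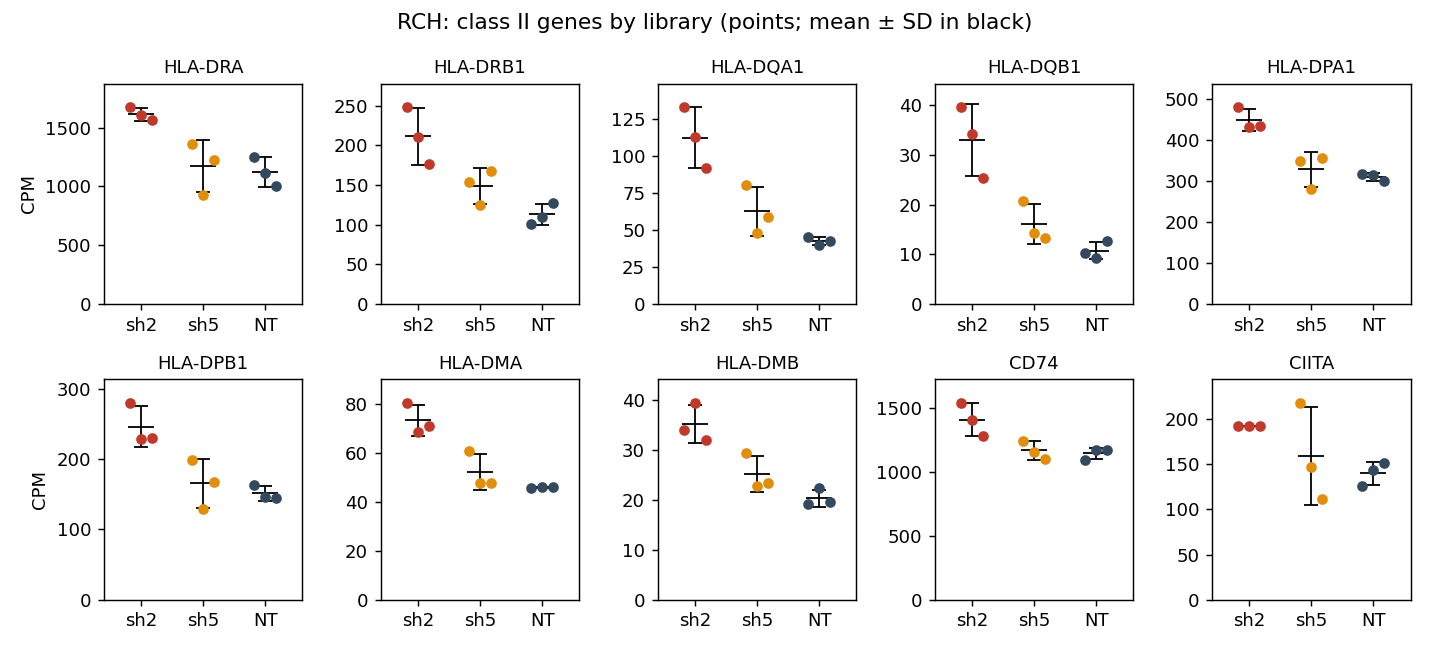
CPM of the 10 class II genes in RCH, by group (sh2, sh5, NT); points are libraries and black bars the mean ± SD of 3. The sh2 points lie above the NT points in every panel, with the largest ratios in HLA-DQA1 (113 ± 20.6 CPM with sh2, against 42.6 ± 2.96 CPM with NT) and HLA-DQB1 (33.0 ± 7.23 CPM with sh2, against 10.7 ± 1.69 CPM with NT).

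In RS411, a second line with a rearranged KMT2A gene, few class II genes were called by edgeR. The median log2 fold change of the 10 genes was 0.014 with sh2 and 0.175 with sh5, against -0.003 and -0.016 over all genes. Above 0 were 5 of 10 with sh2 and 9 of 10 with sh5, and the sh5 median in RCH was 0.181. With sh5 HLA-DQA1 alone was called higher, where 0.460% of 17165 genes were, and with sh2 edgeR called 0 of 10 (0.944% of all genes), with 3 at an unadjusted p < 0.05 and 0 called by DESeq2. HLA-DQA1 measured 21.6, 20.8 and 15.8 CPM with sh2 and 27.4, 24.2 and 23.6 CPM with sh5, against 17.4, 14.5 and 13.99 CPM with NT. The sh5 libraries lay above both other groups, while sh2 and NT overlapped. The log2 fold change was 0.71 ± 0.13 with sh5 (SE, adjusted p = 0.0379) and 0.34 ± 0.13 with sh2 (adjusted p = 0.196). The sh5 call was lost without any 1 of the 6 libraries of the comparison, at an adjusted p of up to 0.197.

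HLA-DRB1 measured 157, 161 and 158 CPM with sh2 and 162, 174 and 168 CPM with sh5, against 136, 143 and 149 CPM with NT, both knockdown groups lying above NT. Its log2 fold change was 0.15 ± 0.06 with sh2 (SE, adjusted p = 0.225) and 0.24 ± 0.06 with sh5 (adjusted p = 0.156). HLA-DQB1 measured 65.3, 60.6 and 53.1 CPM with sh2 and 61.8, 67.5 and 57.4 CPM with sh5, against 47.0, 53.3 and 50.9 CPM with NT, and only the sh5 libraries all lay above NT. Its log2 fold change was 0.24 ± 0.09 with sh2 (SE, adjusted p = 0.182) and 0.30 ± 0.09 with sh5 (adjusted p = 0.219). With the replicate number as a block these 3 genes were called higher with sh2 (adjusted p = 0.0437 for HLA-DRB1, 0.0142 for HLA-DQA1 and 0.0268 for HLA-DQB1, where 7.71% of all genes were called higher) and with sh5 (0.00995, 0.000160 and 0.0186, where 3.48% were).

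The other 7 genes had log2 fold changes of at most 0.34 with either hairpin in RS411. HLA-DMB measured 25.5, 22.4 and 16.2 CPM with sh2 and 26.9, 32.3 and 28.6 CPM with sh5, against 26.2, 23.4 and 19.4 CPM with NT, so the sh5 libraries alone lay above NT. CIITA measured 166, 164 and 142 CPM with sh2 and 158, 159 and 151 CPM with sh5, against 173, 177 and 144 CPM with NT, with overlap throughout. CD74 also overlapped throughout, at 1117, 1100.1 and 1174 CPM with sh2 and 1186, 1159 and 1154 CPM with sh5, against 1134, 1105 and 1171 CPM with NT. Every sh5 library lay above every NT library for 7 of 10 genes (10.6% of all genes) and every sh2 library for 1 of 10, HLA-DRB1 (10.9%). Between the hairpins edgeR called 0 of 10 (0.169% of all genes called higher with sh2 and 0.408% lower, and 8.55% with every sh2 library above every sh5 library), 3 had an unadjusted p < 0.05 and DESeq2 called 0. With the replicate block HLA-DQA1 (adjusted p = 0.00792), HLA-DPA1 (0.0109) and HLA-DMB (0.0328) were called lower with sh2 than with sh5, where 4.55% of all genes were called lower.

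The plot of fold changes shows the lines side by side, and a joint edgeR fit of the 27 knockdown libraries tested the difference between them. The response to sh2 differed between RS411, RCH and SEM for 6 of 10 class II genes (2 degrees of freedom, adjusted over 20225 genes, of which 7.93% were called). The smallest p was that of HLA-DQB1, with a log2 fold change of 0.26 in RS411, 1.64 in RCH and 0.54 in SEM (adjusted p = 0.000265). HLA-DPA1 had -0.06 in RS411, 0.56 in RCH and 0.54 in SEM (adjusted p = 0.00245), and HLA-DQA1 had 0.35, 1.43 and 1.25 in the same order of lines (adjusted p = 0.00598). HLA-DRB1, HLA-DMA and HLA-DMB differed at adjusted p of 0.00657, 0.0108 and 0.0144, and all 6 had their smallest log2 fold change in RS411. HLA-DRA, HLA-DPB1, CD74 and CIITA did not pass the test of the difference, with adjusted p of 0.0530 to 0.227, and the count of 6 was 7 with RLE factors and 7 without a low-count filter, each adding HLA-DPB1.

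The response to sh5 differed between the lines for 0 of 10 class II genes by edgeR (1.75% of all genes), with 1, HLA-DQA1, at an unadjusted p < 0.05 (0.00824), and no other tool was run on the joint data. With the replicate block HLA-DQA1 passed the test of the difference (adjusted p = 0.0137). Averaged over the 3 lines, sh2 raised 10 of 10 genes, where 7.92% of all genes were called higher, from 0.20 ± 0.05 (CD74, adjusted p = 0.00409) to 1.01 ± 0.10 (HLA-DQA1, SE, adjusted p = 1.24e-07) on the log2 scale. Averaged in the same way sh5 raised 5 of 10, where 2.99% were called higher: HLA-DQA1 by 0.88 ± 0.10 (adjusted p = 2.75e-06), HLA-DQB1 by 0.46 ± 0.09 (0.00160), HLA-DMB by 0.43 ± 0.09 (0.00288), HLA-DRB1 by 0.36 ± 0.06 (0.000789) and HLA-DMA by 0.23 ± 0.06 (0.0317). The replicate block added HLA-DPB1 (0.00327) and HLA-DPA1 (0.0194) to these 5. The sh2 and sh5 values share their NT libraries.

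**Figure D4:**
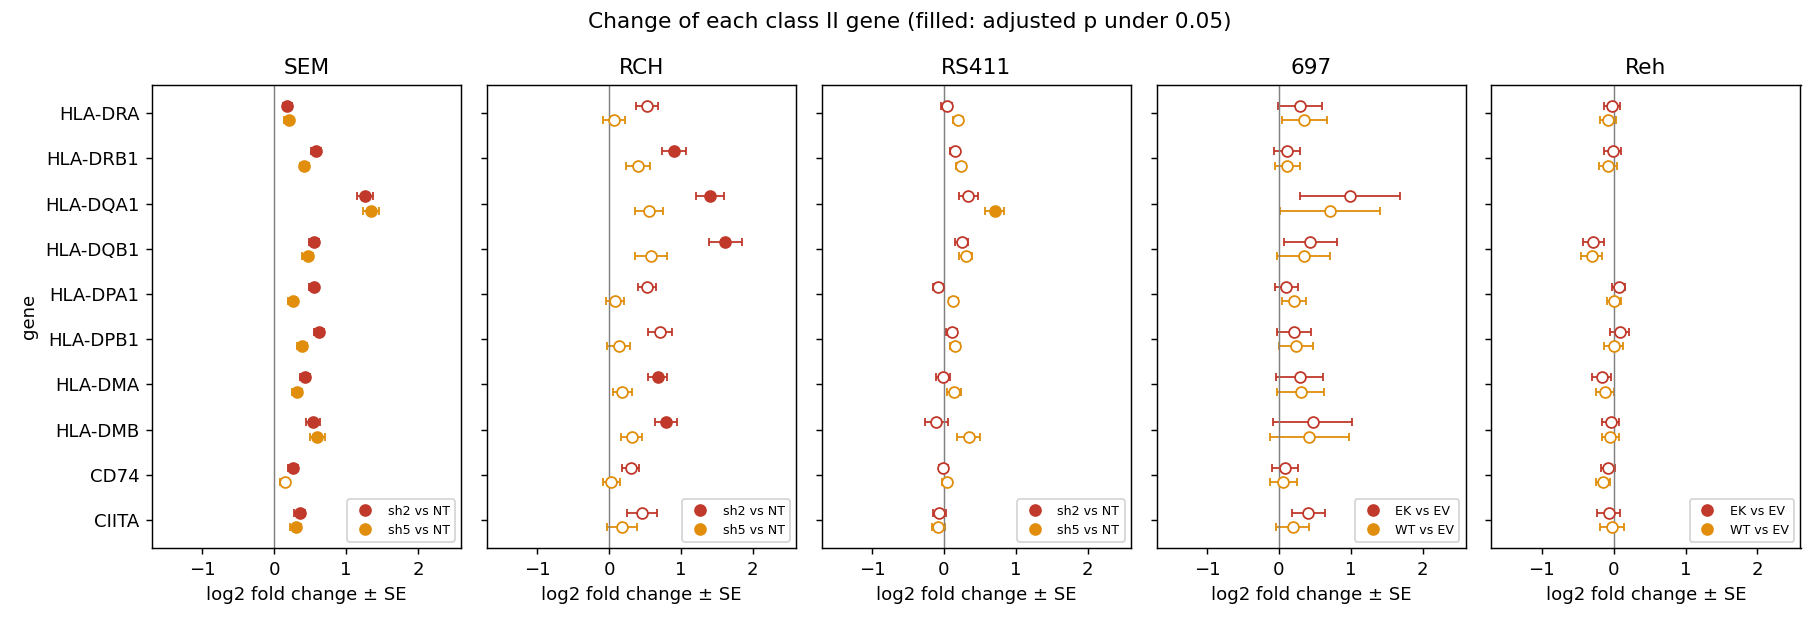
Log2 fold change ± SE of each class II gene against NT (SEM, RCH and RS411; red sh2, orange sh5) or EV (697 and Reh; red EK, orange WT); filled points have an adjusted p under 0.05. HLA-DQA1 is filled for both hairpins in SEM (1.26 and 1.35), for sh2 in RCH (1.40) and for sh5 in RS411 (0.71), and no point is filled in 697 or Reh.

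In 697 with overexpressed NSD2 no class II gene passed the test, and EV replicate 1 had low values throughout. By limma on log2(normalized count + 1) 0 of 10 were called with EK (0.166% of 16310 genes called higher) and 0 of 10 with WT (0.190%), 0 had an unadjusted p < 0.05 in either comparison, and edgeR on reads recovered from the normalized counts called 0 in both. No gene had every EK library above every EV library (4.38% of all genes did) or every WT library above every EV library (3.68%). All 10 log2 fold changes were above 0, with medians of 0.29 with EK and 0.27 with WT, against -0.023 and -0.003 over all genes. EV replicate 1 was the lowest of the 9 libraries for 10 of 10 genes, and WT replicate 3 the highest for 9. Without EV replicate 1, but with EK 1 and WT 1 kept, the medians were -0.055 with EK, with 3 of 10 above 0, and -0.046 with WT, with 2 of 10 above 0.

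HLA-DQA1 spread most, with 564, 579 and 927 normalized counts with EK and 243, 622 and 1105 with WT, against 107, 431 and 823 with EV. The groups overlapped, and the log2 fold change was 0.99 ± 0.69 with EK (SE, adjusted p = 0.986) and 0.71 ± 0.69 with WT (adjusted p = 1.00). HLA-DMB measured 205, 224 and 476 normalized counts with EK and 172, 241 and 479 with WT, against 88.3, 232 and 399.8 with EV. CIITA measured 2275, 2807 and 3066 normalized counts with EK and 2344, 1891 and 2782 with WT, against 1639.5, 1751 and 2889.8 with EV. HLA-DRA measured 17897, 13060.1 and 19066 normalized counts with EK and 12858, 16860.4 and 23089 with WT, against 8134, 15216 and 19323 with EV. In each of these genes the range of the EV libraries covered most of the other groups.

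Libraries of 697 with the same number deviated together across all genes (correlations of 0.415 to 0.581), so differences were also taken within a number. EK less EV had a median over the 10 genes of 0.81 for number 1, -0.10 for number 2 and 0.01 for number 3 on the log2 scale, with 10, 3 and 6 of 10 genes above 0. WT less EV had medians of 0.53, 0.10 and 0.17, with 10, 9 and 9 of 10 above 0, so within numbers 2 and 3 most genes were higher with WT than with EV, but not with EK in number 2. The replicate block called none of the 10 genes with EK or WT. EK and WT differed by -0.10 (HLA-DPA1) to 0.28 (HLA-DQA1), with 0 of 10 called (0% of all genes), 0 with every EK library above every WT library (1.74% of all genes), 0 at an unadjusted p < 0.05 and 0 called by edgeR on recovered reads.

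**Figure D5:**
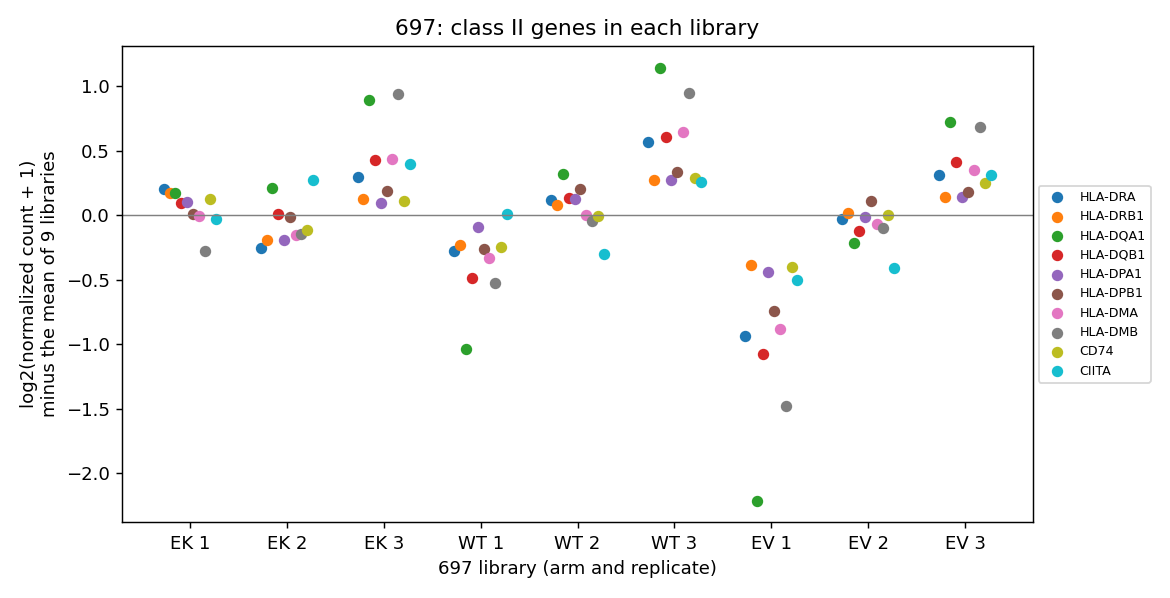
Each class II gene in each 697 library (EK, WT and EV, replicates 1 to 3), as log2(normalized count + 1) less the gene's mean over 9 libraries. All 10 points of EV 1 lie at the bottom of their gene's range, and EV 3 lies near EK 3 and WT 3.

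In Reh no class II gene passed the test. Of the 9 genes tested (HLA-DQA1 had too few reads) edgeR called 0 with EK (0.175% of 15972 genes called higher) and 0 with WT (0.188%), 0 had an unadjusted p < 0.05, and DESeq2 called 0. Every EK library lay above every EV library for 1 of 9, HLA-DPA1 (14.2% of all genes), and every WT library for 0 (15.4%). Every EK library lay below every EV library for 3 of 9 (13.7% of all genes) and every WT library for 2 of 9 (14.9%), and 2 of 9 log2 fold changes were above 0 in each comparison. HLA-DQB1 had the largest log2 fold change of the 9, at 14.1 and 17.3 CPM with EK and 15.6 and 15.3 CPM with WT, against 19.0 and 19.1 CPM with EV. Both groups lay below EV, by -0.28 ± 0.15 with EK (SE, adjusted p = 0.993) and -0.30 ± 0.15 with WT (adjusted p = 1.00). HLA-DQB2 held 19.1 to 22.8% of the reads of this pair of near copies in Reh. CIITA measured 155 and 212 CPM with EK and 186 and 192 CPM with WT, against 179.8 and 205 CPM with EV. HLA-DRA measured 1230.1 and 1303 CPM with EK and 1157 and 1287 CPM with WT, against 1229 and 1346 CPM with EV. These groups overlapped, and so did EK and WT, between which edgeR called 0 of 9 (0% of all genes), with 2 of 9 having every EK library above every WT library (11.7% of all genes), 0 at an unadjusted p < 0.05 and 0 by DESeq2. With 2 libraries per group the precision is low.

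Other genes of the pathway were followed as lists. Of all genes tested in SEM 13.5% were called higher and 14.4% lower with sh2, and 11.1% higher and 10.2% lower with sh5, and each list count in SEM stands against these shares. Of 7 promoter factors of class II genes (RFX, NF-Y and CREB1) tested there RFXANK was called higher and NFYB lower with sh2, and RFXANK and RFX5 higher with sh5, with values of 0.30 ± 0.06 and -0.17 ± 0.06 with sh2 and 0.25 ± 0.06 and 0.28 ± 0.06 with sh5 (log2 fold change, SE). The NFYB call was lost in 5 of 6 fits that left out 1 library. Among 12 regulators of CIITA in SEM 5 were called higher and 1 lower with sh2, and 4 higher and 2 lower with sh5. IRF8, an interferon regulatory factor of B and myeloid cells, measured 266, 273 and 284 CPM with sh2 and 222, 227 and 217 CPM with sh5, against 131, 137 and 138 CPM with NT (log2 fold change 1.02 ± 0.05 for sh2, adjusted p = 1.22e-09, and 0.71 ± 0.05 for sh5, adjusted p = 1.55e-07). IRF4 went the other way, at 66.2, 64.0 and 60.9 CPM with sh2 and 113, 111 and 118 CPM with sh5, against 140.2, 157 and 134 CPM with NT. It fell by 1.17 ± 0.06 on the log2 scale with sh2 (SE, adjusted p = 3.17e-09) and by 0.34 ± 0.06 with sh5 (adjusted p = 0.00132).

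IRF8 was also the regulator called in RS411 with sh2, at 63.5, 60.7 and 43.2 CPM with sh2 and 42.2, 38.4 and 34.2 CPM with sh5, against 31.3, 29.02 and 30.3 CPM with NT. Its log2 fold change was 0.89 ± 0.13 with sh2 (SE, adjusted p = 0.0161), and sh5 was not called. The sh2 call was lost in 5 of 6 fits that left out 1 library, at an adjusted p of up to 0.0819. In RCH the regulator called with sh2 was IRF2, at 46.3, 42.5 and 45.0 CPM with sh2 and 36.6, 32.0 and 39.7 CPM with sh5, against 30.02, 29.3 and 29.2 CPM with NT (0.60 ± 0.12, adjusted p = 0.0432). The IRF2 call was lost in 6 of 6 such fits, at adjusted p of 0.0583 to 0.182. No regulator of CIITA was called in Reh, in 697, or with sh5 in RCH and RS411. IRF8 in RCH had a log2 fold change of 1.15 ± 0.34 with sh2 that did not pass (adjusted p = 0.128).

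Near copies and partners of the class II chains were called in RCH and SEM. In RCH 3 of 5 tested were called higher with sh2 (1.17% of all genes) and 0 with sh5, HLA-DQB2 by 1.78 ± 0.31, HLA-DQA2 by 1.30 ± 0.20 and HLA-DRB5 by 0.86 ± 0.17 (log2 fold change, SE). Leaving out 1 library kept these calls in 2, 2 and 1 of 6 fits. In RS411 0 of 4 were called with either hairpin, with median log2 fold changes of -0.09 with sh2 and 0.20 with sh5. In SEM 2 of 5 were called higher with each hairpin, HLA-DQA2 and HLA-DRB5. HLA-DQA2 had only 106 reads over all SEM libraries, 1.3 to 4.7% of the reads of its pair with HLA-DQA1. How reads were split between these copies is uncertain. Its call was kept in 6 of 6 fits with a library left out for sh2 and in 3 of 6 for sh5, at an adjusted p of up to 0.0674. HLA-DRB5 there measured 23.9, 25.1 and 22.1 CPM with sh2 and 19.8, 20.3 and 21.6 CPM with sh5, against 14.4, 15.7 and 14.1 CPM with NT. HLA-DOA, part of the dimer that holds HLA-DM back, was called between the hairpins in RS411 at 80.4, 74.9 and 80.5 CPM with sh2 and 102.5, 105.9 and 95.5 CPM with sh5, lower with sh2 by a log2 fold change of -0.37 ± 0.07 (adjusted p = 0.0271), a call kept in 1 of 6 fits with a library left out.

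Class I genes, which present peptides from the cytosol, were higher in SEM too. Of 11 tested 10 were called higher with sh2 and 10 with sh5, with median log2 fold changes of 0.55 and 0.49, against 0.006 and -0.007 over all genes. NLRC5, the class I counterpart of CIITA, measured 79.5, 74.9 and 73.3 CPM with sh2 and 64.7, 62.5 and 53.0 CPM with sh5, against 32.8, 32.2 and 31.3 CPM with NT (1.24 ± 0.07 for sh2, adjusted p = 8.92e-09, and 0.90 ± 0.07 for sh5, adjusted p = 6.69e-07). TAP1, a subunit of the peptide transporter, rose by 1.01 ± 0.06 with sh2 and by 0.84 ± 0.06 with sh5 on the log2 scale. In RCH none of the 11 class I genes was called with either hairpin, with medians of 0.09 with sh2 and 0.01 with sh5. Of all genes tested there 1.17% were called higher with sh2 and 0.0229% with sh5, so 0 of 11 is near those shares. In RS411 TAP1 alone was called with sh2 (0.39 ± 0.08, adjusted p = 0.0379), where 0.944% of all genes were called higher. That call was kept in 1 of 6 fits with a library left out. In the joint fit the response to sh2 differed between the lines for 4 of 11 class I genes, where 7.93% of all genes did: TAP1 (adjusted p = 0.000869), PSMB9 (0.000446), NLRC5 (0.00115) and HLA-B (0.0101), each with its largest log2 fold change in SEM. The response to sh5 differed for 3 of 11, where 1.75% of all genes did. These were TAP1 (adjusted p = 0.0041), PSMB9 (0.0054) and NLRC5 (0.0085), again with the largest log2 fold change in SEM.

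Genes of peptide processing and co-stimulation were called in SEM as well. Of 8 endosomal genes tested 5 were called higher and 1 lower with sh2 (LGMN 0.55 ± 0.07, CTSS 0.44 ± 0.06, CTSB 0.65 ± 0.08 and IFI30 0.98 ± 0.19 among the higher, as log2 fold changes with SE), and 2 higher and 1 lower with sh5. CTSS, the protease that trims CD74, was also the endosomal gene called in RCH with sh2, at 74.5, 55.4 and 51.8 CPM with sh2 and 47.8, 35.5 and 36.9 CPM with sh5, against 38.9, 30.5 and 25.8 CPM with NT (0.93 ± 0.20, adjusted p = 0.0481). The CTSS call in RCH was kept in 2 of 6 fits with a library left out, at an adjusted p of up to 0.209. Of 4 co-stimulation genes tested in SEM 3 were called higher with sh2, and 2 higher and 1 lower with sh5. CD86, a ligand of CD28, measured 9.54, 14.4 and 14.1 CPM with sh2 and 27.2, 28.04 and 28.5 CPM with sh5, against 3.05, 5.21 and 5.15 CPM with NT (1.497 ± 0.203 for sh2, adjusted p = 0.000255, and 2.64 ± 0.20 for sh5, adjusted p = 6.25e-06). In Reh, 697 and RS411 no endosomal or co-stimulation gene was called against EV or NT.

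The replicate block added calls among the listed genes of RS411 and SEM, and among all genes too. In RS411 it called 7.71% of all genes higher with sh2 (0.944% in the main fit) and 3.48% with sh5 (0.460%). In SEM with sh5 it called 17.7% higher (11.1% in the main fit). The shares called lower against NT, and those in SEM with sh2, are not given under the block. In RS411 with sh2 it called CTSS (adjusted p = 0.00244), CTSB (0.000697), NLRC5 (0.00317), PSMB9 (0.00988), HLA-C (0.0380), IRF1 (0.00430), IFNGR1 (0.0348), JAK1 (0.0276), RFXANK (0.0159) and CREB1 (0.0237) higher and HLA-DOA (0.0407) lower. In RS411 with sh5 it called CTSS (0.00636) and HLA-E (0.0344) higher and CD40 (0.0275) and NLRC5 (0.0430) lower. In SEM it called RFX5 higher with sh2 (0.00778), and CTSS (0.0451), TAPBP (0.0181) and HLA-DOA (0.0124) higher and CTSH (0.0332) lower with sh5.

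The class II genes varied together from library to library in 697, RCH and SEM, and less so in RS411 and Reh. The correlation of each gene with the mean of the others, on log2 values less the line's mean, was 0.945 to 0.994 over the 9 libraries of 697 for all genes but CIITA (0.699), 0.887 to 0.984 over the 9 of RCH but for CIITA (0.725) and 0.82 to 0.987 over the 9 of SEM. In RS411 it was 0.004 for CD74 and -0.044 for CIITA, and 0.361 to 0.851 for the other 8. In Reh it ran from -0.137 (HLA-DPA1) and -0.041 (HLA-DRB1) to 0.698 (HLA-DQB1) over 6 libraries. These describe libraries that share line, batch and group, and carry no test. Over all 42 libraries, among 8686 genes outside the lists with a mean of at least 5 CPM in every line, ICAM2 (r = 0.783), QPRT (0.779), C19orf66 (0.777), TCEA2 (0.751) and SIGIRR (0.743) were most like the mean of the class II genes. For CIITA alone they were TCEA2 (0.803), NEAT1 (0.791), DNAH1 (0.778), AKAP13 (0.775) and VAMP1 (0.773).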

How the data were processed

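RNA was prepared with RNeasy kits and TruSeq stranded total RNA reagents with RiboZero Gold and sequenced to 54 bases, per the labels' protocols. Trimmomatic, STAR, featureCounts and the genome build hg19 are named in the submitters' processing notes (tool versions: not given in the sources used here). The authors' deposited gene counts, not normalized, were used for every line but 697. For 697 the deposited signal values, read counts divided by 1 factor per library, were used, and 100.0% of those above 0 were whole reads within 0.001 reads. The depth per library ran from 23688482 to 27244031 reads in Reh, 40664735 to 57179806 in 697, 27826387 to 67796769 in RS411, 21941718 to 55001132 in RCH and 32583013 to 39562010 in SEM. Per Reh file 3 columns matched no sample and were not used. Reh counts took symbols from the 15793 genes with identical reads in the normalized table. Per knockdown file 27 rows whose names had turned into dates (0.214%, 0.247% and 0.230% of reads in RS411, RCH and SEM) were left out. Of the listed genes HLA-DRB3, HLA-DRB4 and CTSL1 matched no row, and neither did MARCH8 in the knockdown tables or TAP2 outside Reh.

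The quasi-likelihood F-test of edgeR 4.0.16 (R 4.3.3) was applied to the counts, all groups of a line in 1 fit, after filterByExpr and with TMM scaling and robust estimation. For 697 limma 3.58.1 (trend) was applied to log2(normalized count + 1) for means of at least 10, which understates changes of low genes. The 27 knockdown libraries were also fitted jointly. Adjustment followed Benjamini and Hochberg across every gene of a fit, and a call is an adjusted p < 0.05. The edgeR SE is the log2 fold change divided by the root of F. CPM carry TMM factors. Scripts were tested on simulated data. Libraries of the same number deviated together in Reh (0.675 to 0.717), 697 (0.415 to 0.581), RS411 (0.300 to 0.553), SEM (0.168 to 0.523) and between sh5 and NT in RCH (0.312 to 0.727). That is a hint of pairing from the data alone. The main fits did not pair libraries. Pairing entered only through the replicate block among the alternatives and, in 697, through differences within a number. Each library was left out in turn, and results were recomputed with DESeq2 1.42.0, 2 other scalings (RLE, upper quartile), other filters and pseudocounts, 2 groups alone, the replicate block and recovered reads in 697. Recovered reads together with the block were chosen after seeing the data. The genes, lists and tests were chosen with earlier results of these data known. Named genes are all 10 class II genes, up to 4 called genes per other list and comparison in order of adjusted p, and the 5 genes most alike in pattern. Regulators of CIITA and B-lineage markers share PAX5. Tables and plots used pandas 2.3.3 and matplotlib 3.10.9 under Python 3.11.15, and transcript lengths came from GENCODE 29.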

Additional observations from a re-analysis of the deposited data

Results flagged for a closer look

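The change with sh2 differed between RS411, RCH and SEM for 6 of the 10 class II genes in the joint edgeR fit. The adjusted p of the difference was 0.000265 for HLA-DQB1, 0.00245 for HLA-DPA1, 0.00598 for HLA-DQA1, 0.00657 for HLA-DRB1, 0.0108 for HLA-DMA and 0.0144 for HLA-DMB. NSD2 itself fell by 0.71 in RS411, by 0.77 in RCH and by 0.99 in SEM on the log2 scale with sh2, and its own difference between the lines had an adjusted p of 0.682. The part of NSD2 levels in the class II difference was not tested.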

How the results depend on the processing

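Of 1238 log2 fold changes of single class II genes under alternatives, 42 lost and 21 gained a call, and 30 uncalled ones moved by more than their SE. The other 1145 kept their side of the threshold, and 0 of those called in either fit changed sign. Of 892 that were uncalled in both fits, 53 had the opposite sign, so the 1145 did not all keep their direction. Counts of called genes in RS411 with sh5 against NT (1 in the main analysis) were 0 with upper-quartile factors, 2 without a low-count filter, 0 with at least 1 CPM, 2 with DESeq2, 3 with the replicate block and 0 to 0 when any 1 library was left out. With sh2 against NT in RS411 (0) they were 3 with the replicate block and 0 to 2 with 1 library left out, the 2 without sh2 replicate 3. Between sh2 and sh5 in RS411 (0) they were 1 without a filter and 3 with the replicate block. In SEM against NT they were 9 to 10 with sh2 (10) and 7 to 10 with sh5 (9) over all alternatives. In RCH with sh2 against NT (5) they were 7 with DESeq2, 7 with 2 groups alone, 8 without a filter, 8 with the replicate block and 0 to 5 with 1 library left out. The share of all genes called higher there was 1.17% in the main analysis and is not given under these settings. That share can move with the setting, in RS411 with sh2 from 0.944% to 7.71% under the block. A higher count therefore need not be particular to class II genes. Between sh2 and sh5 in RCH (0) the counts were 3 without a filter, 2 with DESeq2, 3 with the replicate block and 0 to 1 with 1 library left out. Correlations of RCH sh2 libraries with libraries of the same number were -0.0143 to 0.353 for NT and 0.0939 to 0.280 for sh5. In Reh, with 2 numbers, such correlations were 0.675 to 0.717, and the block called 0 class II genes there. Between sh2 and sh5 in SEM (2) the counts of called genes were 1 with upper-quartile factors and 1 to 2 with 1 library left out. Genes whose sh5 response differed between lines (0) numbered 1 without a filter and 1 with the replicate block. Those whose sh2 response differed (6) numbered 7 with RLE factors, 7 without a filter and 8 with the replicate block. In 697 every alternative called 0. Beside the calls given here and in the report, the replicate block changed none of a class II gene. Fewer genes enter the adjustment under a stricter filter and fewer libraries the fit when 1 is left out; the other causes were not tested. Depth limits HLA-DQA1 in Reh, with 7 reads.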
